A study of Mus musculus with 27 samples.

Results

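The genes described here are those of the mitochondrial genome, chosen by a symbol that starts with mt-. All 37 were present among the 54752 gene rows of the count tables: 2 ribosomal RNAs, 13 protein genes and 22 transfer RNAs. They were measured in CT26 tumors, grown from a murine colon carcinoma line placed under the skin of BALB/c mice. Before grafting, the cells received by retrovirus a guide RNA against Mettl3 (Mettl3 KO), a guide against Mettl14 (Mettl14 KO) or a control guide. The labels do not say whether the edited cells were a pool or 1 clone, and host cells remain in each tumor. Each antibody dose was 200 µg, equal to 10 mg/kg, and dosing ran over days 11 to 23. The series design places all 3 groups under anti-PD-1, although anti-CTLA-4 and IgG are named beside it in the protocols. Mouse ages are not stated in the labels. Bulk RNA was sequenced from 5 samples per group, and the question was which genes differ in tumors without either methyltransferase.

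The mitochondrial genome is a small circle of DNA, kept in many copies per cell, that is read from both strands into long precursor RNAs. Transfer RNAs lie between most of its genes and are cut out, which frees the 2 ribosomal RNAs and the messenger RNAs of core subunits of respiratory complexes I, III, IV and V. The proteins that copy, transcribe, cut and translate it all come from the nucleus. Mettl3 and Mettl14 together form the nuclear enzyme that places N6-methyladenosine on messenger RNA.

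Between 4354273 and 20978633 reads per library were counted on genes, and 56.8% to 86.2% of reads fell on lines that name no gene. Control replicate 1 stood apart from the other controls, with 78.6% of its uniquely aligned reads outside genes against 44.3% to 53.8%, while Mettl3 KO libraries had 60.2% to 78.0%. In it, and in Mettl3 KO replicates 1, 3 and 4, 5 satellite-like gene models (Gm10800, Gm10801, Gm10717, Gm10722 and Gm21738) took over 20% of gene counts, so results are given with these models or these libraries left out as well. The targeted genes overlapped between groups, and counts over a whole gene do not show an edit. Mettl3 stood at 10.9 to 17.3 CPM (counts scaled to 1000000 gene counts per library) in Mettl3 KO and 15.04 to 21.6 in control libraries. Mettl14 stood at 49.1 to 79.9 CPM in Mettl14 KO and 58.0 to 75.7 in control libraries. Of 6 epithelial markers, Krt20 dominated (176 ± 10.0 CPM in controls, SD, n = 5), while Epcam (1.496 ± 1.75 CPM) and Cdh1 (4.58 ± 3.33 CPM) were scarce.

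Not all of the 37 genes could be read off these counts. The reads were 75 bases long and single-ended, and a stretch of mitochondrial DNA copied into chromosome 1 carries gene models that match several mitochondrial genes base for base. The first 75 bases of mt-Co3, a subunit of cytochrome c oxidase (complex IV), and of its nuclear copy Gm28437 are shown because they are the same sequence. They lie at chrM:8607-8681 on the plus strand and at chr1:24613897-24613971 on the minus strand of mm10.
mt-Co3: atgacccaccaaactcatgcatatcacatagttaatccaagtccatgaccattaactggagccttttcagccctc
Gm28437: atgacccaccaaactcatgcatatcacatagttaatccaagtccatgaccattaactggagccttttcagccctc
Over the full copy of 783 bases there were 0 mismatches.

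A read position was called countable here when a 75-base read starting there touches 1 mitochondrial gene and is not identical to part of an annotated nuclear gene model. Between 97.5% and 99.9% of the single-gene positions of mt-Co2, mt-Atp6, mt-Co3, mt-Nd3 and mt-Nd4l were identical to a nuclear model. The share was 61.2% in mt-Nd4 and 39.7% in mt-Co1. It was 5.72% in mt-Nd2, 1.67% in mt-Nd5 and 0% in both ribosomal RNAs, mt-Nd1, mt-Nd6, mt-Cytb and mt-Atp8. Only annotated copies were searched, so these shares are lower limits.

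The counts followed the same division except in mt-Atp8, which had 77 reads although 0% of its single-gene positions were shared. Over the 15 libraries together, mt-Co1 had 693363 reads, mt-Cytb 346010 and mt-Nd1 250474. In contrast, mt-Co2 had 1265, mt-Co3 1119, mt-Atp6 626, mt-Nd3 88 and mt-Nd4l 51. How such reads were treated in counting is not stated, so low counts of these 5 genes and of mt-Atp8 are not read as low RNA.

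**Figure D1:**
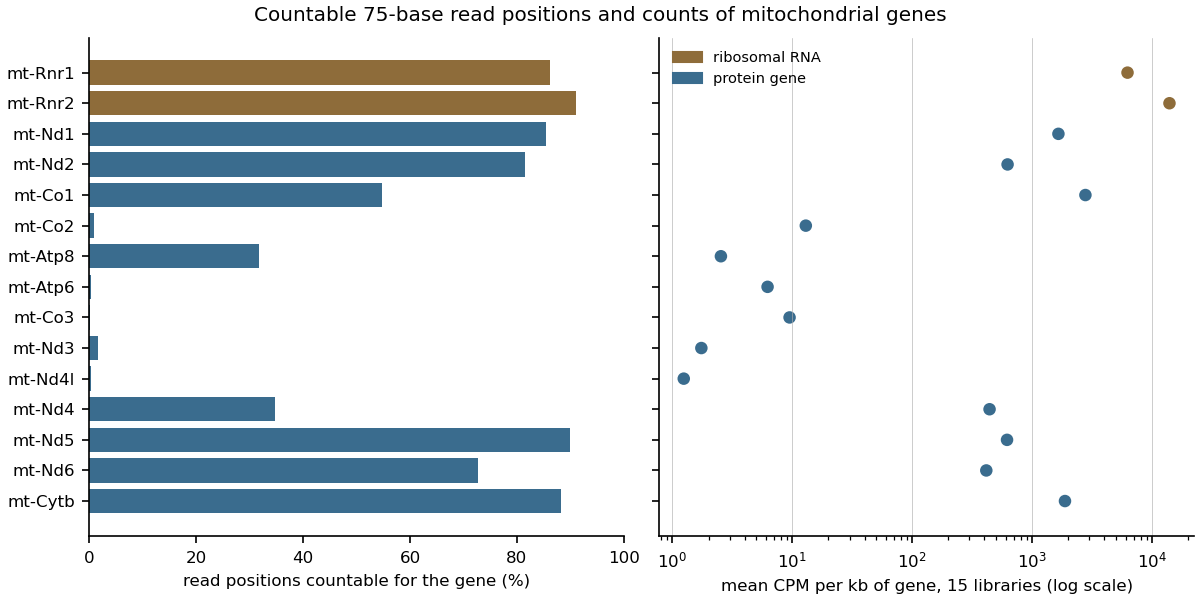
Left, percent of read positions touching each ribosomal RNA or protein gene that are countable for it, in map order. Right, its mean CPM per kb of gene over 15 libraries, on a log axis. The genes with under 2% countable positions sit below 20 CPM per kb, while mt-Rnr2 reaches 13951. mt-Atp8, with 31.7% countable positions, also sits there at 2.54.

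Overlap between neighbours left fewer countable positions. mt-Atp8 and mt-Atp6, the 2 mitochondrial subunits of ATP synthase (complex V), share 43 bases. The junction at chrM:7897-7999 (plus strand, mm10) is printed with the shared bases in capitals, because a read across it belongs to both genes.
mt-Atp8/mt-Atp6: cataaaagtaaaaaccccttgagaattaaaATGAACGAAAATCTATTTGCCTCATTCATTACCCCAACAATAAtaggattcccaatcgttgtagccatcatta
The capitals open with the start codon of mt-Atp6 and end with the stop codon of mt-Atp8. mt-Atp8 kept 88 single-gene positions, 0 of them shared with an annotated nuclear model, and still had only 77 reads in all. Why it had so few was not tested. mt-Nd4l and mt-Nd4 overlap by 7 bases.

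Transfer RNAs, at 59 to 75 bases, are no longer than a read, so nearly every read on one also touches its neighbour. Together the 22 had 2667 reads, or 0.0408% of mitochondrial counts, with 10 genes at 0 and 18 under 20 reads. mt-Tc (cysteine) held 2242 of these reads and mt-Tp (proline) 315. Both have a gap beside them, with 26 countable positions for mt-Tc and 67 for mt-Tp. mt-Tn (asparagine), with 31 such positions, had 15 reads. mt-Tf (phenylalanine), which abuts mt-Rnr1 but for 1 base, had 0 countable positions and 1 read. The sequences of mt-Tf (chrM:1-68, plus strand) and mt-Tc (chrM:5192-5257, minus strand) show how short these genes are against a 75-base read.
mt-Tf: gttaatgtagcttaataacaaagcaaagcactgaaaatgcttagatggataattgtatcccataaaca
mt-Tc: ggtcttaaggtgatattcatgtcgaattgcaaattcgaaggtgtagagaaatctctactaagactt

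The genes that remain measurable are 2 ribosomal RNAs and 7 protein genes, 5 of complex I (mt-Nd1, mt-Nd2, mt-Nd4, mt-Nd5, mt-Nd6), mt-Cytb of complex III and mt-Co1 of complex IV. Ribosomal RNA took 73.9% of mitochondrial counts over all libraries, and mt-Rnr2, the large-subunit RNA, alone took 58.1%. Levels between genes were compared as CPM per 1000 countable positions. In controls mt-Rnr2 was highest at 21110 ± 7749 (SD, n = 5), followed by mt-Rnr1, the small-subunit RNA, at 10949 ± 6013. The catalytic subunit mt-Co1 led the protein genes with 5741 ± 2429. Then came mt-Cytb at 2779 ± 1476, mt-Nd1 at 2359 ± 1159 and mt-Nd4 at 1822 ± 934. The lowest were mt-Nd2 at 1003 ± 621, mt-Nd5 at 896 ± 524 and mt-Nd6, the only protein gene of the minus strand, at 610 ± 365. The ranges of neighbours in this order overlapped in every case. The library protocols name ribosomal depletion as well as selection for poly(A) RNA, so ratios between ribosomal and messenger RNA describe these libraries and not the cells.

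In Mettl3 KO tumors the mitochondrial genome took a smaller share of the library. It held 4.02%, 8.85%, 6.93%, 4.32% and 3.53% of gene counts in control replicates 1 to 5. The Mettl3 KO libraries had 1.41%, 2.64%, 1.87%, 1.59% and 2.24%, and the Mettl14 KO libraries 3.19%, 4.75%, 4.19%, 3.06% and 5.41%. All 5 Mettl3 KO values lay below all 10 others, and the Mettl14 KO and control ranges overlapped. Means were 5.53% ± 2.28 (control), 1.95% ± 0.498 (Mettl3 KO) and 4.12% ± 1.01 (Mettl14 KO), SD with n = 5 each. As a sum over chosen genes, this share is a description and has no test.

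With the satellite-like models out of the total, the control share was 3.53% to 8.96%, that of Mettl3 KO 2.12% to 2.97% and that of Mettl14 KO 3.12% to 5.71%. The Mettl3 KO range thus still lay below both others, with a mean of 2.63% ± 0.356. As a share of uniquely aligned reads, in genes or not, the ranges of Mettl3 KO (0.337% to 0.949%) and control (0.831% to 3.98%) overlapped through control replicate 1. In bulk tissue, fewer cells rich in mitochondria, less mitochondrial RNA per cell and a different make-up of the libraries cannot be told apart. Reads outside genes were 60.2% to 78.0% of uniquely aligned reads in Mettl3 KO and 44.3% to 78.6% in control, and their part was not tested.

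By class, Mettl3 KO lay apart in ribosomal RNA and not in protein genes. The protocols name ribosomal depletion, and its part in the levels of the 2 ribosomal RNAs was not tested. Ribosomal RNA took 0.891% to 1.81% of gene counts in Mettl3 KO, 2.66% to 6.31% in control and 2.33% to 3.75% in Mettl14 KO. Without the satellite-like models it took 1.19% to 2.03%, 2.66% to 6.39% and 2.37% to 4.05%, so Mettl3 KO stayed below both other groups. The 13 protein genes took 0.411% to 1.13% in Mettl3 KO, 0.871% to 2.53% in control and 0.730% to 1.75% in Mettl14 KO, and those ranges overlapped. Without the satellite-like models the protein ranges were 0.776% to 1.24%, 0.872% to 2.56% and 0.736% to 1.85%.

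**Figure D2:**
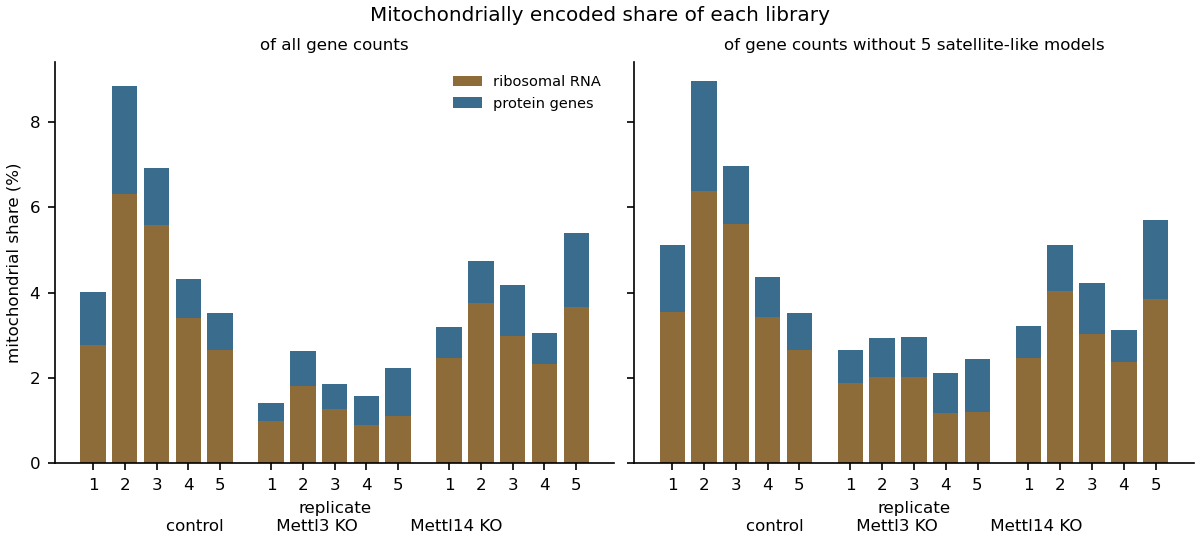
Percent of gene counts on mitochondrial ribosomal RNAs and protein genes in each of 15 libraries, over all gene counts (left) and with 5 satellite-like models left out of the total (right). In both panels the tallest Mettl3 KO bar (2.64% and 2.97%) is lower than the shortest control bar (3.53%).

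The split of protein counts between complexes varied less. Complex I genes made up 38.1% ± 1.25 of mitochondrial protein counts in Mettl3 KO, 40.5% ± 4.08 in control and 37.0% ± 4.33 in Mettl14 KO. The complex III gene mt-Cytb made up 19.3% ± 2.21, 21.3% ± 1.21 and 18.1% ± 1.27 in that order. Complex IV, nearly all mt-Co1, made up 42.6% ± 1.60, 38.1% ± 5.09 and 44.8% ± 4.89. Complex V made up 0.0333% ± 0.0274 in control, a value set by the unreadable mt-Atp6 and mt-Atp8.

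Each gene was then tested in a fit over all genes (edgeR quasi-likelihood test, Benjamini-Hochberg adjustment, threshold 0.05). Of the 37 genes, 14 passed the filter on low counts in each comparison. The 23 left out were 20 transfer RNAs and the protein genes mt-Atp8, mt-Nd3 and mt-Nd4l.

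Both ribosomal RNAs were called in Mettl3 KO tumors, and both were lower. mt-Rnr1 (ENSMUSG00000064337, chrM:70-1024, plus strand), the RNA of the small mitochondrial ribosomal subunit, stood at 5570, 15232, 15540, 7187 and 4756 CPM in control replicates 1 to 5. The Mettl3 KO libraries held 1278, 2935, 1835, 1424 and 1914 CPM, and in Mettl14 KO at 4206, 7437, 9467, 3677 and 6859 CPM. Every Mettl3 KO library lay below every library of the other groups, and control replicates 2 and 3 were the highest of all. Its log2 fold change was -2.56 (SE 0.42, edgeR adjusted p = 0.0236), from 9657 ± 5304 to 1877 ± 649 CPM.

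mt-Rnr2 (ENSMUSG00000064339, chrM:1094-2675, plus strand), the RNA of the large subunit, stood at 22268, 47893, 40316, 26856 and 21834 CPM in controls. In Mettl3 KO it was at 8680, 15214, 10955, 7483 and 9187 CPM, and in Mettl14 KO at 20408, 30086, 20495, 19647 and 29732 CPM. Again the Mettl3 KO libraries lay wholly below both other groups. The log2 fold change was -1.79 (SE 0.34, edgeR adjusted p = 0.0397), from 31833 ± 11685 to 10304 ± 3016 CPM. With satellite-like models out of the total, the groups also stayed apart, at 9957 to 17356 CPM in Mettl3 KO and 21846 to 48499 in control.

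Against this background, 1.24% of the 21427 genes tested were called in Mettl3 KO, 0.406% higher and 0.835% lower, while 2 of 14 mitochondrial genes were called, 0 higher and 2 lower. Of all 50417 genes with a count, 0.678% had Mettl3 KO wholly below control, as did 2 of the 14 tested mitochondrial genes. These sets are unlike, because many of the 50417 had too few reads to be tested. The balance of all calls moved with scaling, from 87 higher and 179 lower with TMM to 72 and 28 with RLE scaling. Over all genes the median log2 fold change was -0.14 under TMM, -0.049 under RLE and 0.010 when only library totals were used. Measured from the TMM median, mt-Rnr1 was at -2.43 and mt-Rnr2 at -1.65. Over the 14 genes the median log2 fold change was -1.22, with 12 below 0.

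The number of mitochondrial calls depended on single libraries. It was 8 of 14, all lower, without control replicate 1, where 11623 of all 22535 genes tested were called, 3461 lower and 8162 higher. It was 0 without control replicate 2 or without Mettl3 KO replicate 1, 3, 4 or 5. mt-Rnr2 also lost its call with RLE scaling (adjusted p = 0.0708), library totals (0.0507), the satellite-like models out (0.0619), no filter on low counts (0.148) or a filter at a mean of 1 CPM (0.0849), all by edgeR. mt-Rnr1 kept its call in those 5 fits. With the 4 satellite-rich libraries left out, 0 of 17 tested genes were called (4 of all genes), with mt-Rnr1 at -2.42 (edgeR adjusted p = 0.0946) and mt-Rnr2 at -1.76 (edgeR adjusted p = 0.0915). DESeq2 called 8 of the 14, all lower, where it called 9.09% of all genes lower. Those 8 were the 2 ribosomal RNAs, mt-Nd1, mt-Nd2, mt-Nd4, mt-Nd5, mt-Cytb and mt-Co1.

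None of the protein genes passed in the main edgeR fit of that comparison, though 10 of 10 tested had a negative log2 fold change. mt-Nd1 (chrM:2751-3707), the most abundant complex I gene here, stood at 2185, 3770, 1858, 1267 and 1309 CPM in controls. Its levels in Mettl3 KO were 760, 1281, 992, 1000 and 1582 CPM, and in Mettl14 KO at 1036, 1393, 1844, 1122 and 2349 CPM. The groups overlapped, with control replicate 2 far above the rest, and the log2 fold change in Mettl3 KO was -1.06 (SE 0.31, edgeR adjusted p = 0.0601).

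mt-Cytb (chrM:14145-15288), the cytochrome b of complex III, stood at 2723, 5651, 2998, 1812 and 1753 CPM in controls. Mettl3 KO libraries had 683, 1718, 1167, 1228 and 2478 CPM, and in Mettl14 KO at 1249, 1693, 2248, 1291 and 3505 CPM. Only Mettl3 KO replicate 5 rose above the lowest control, and the log2 fold change was -1.25 (SE 0.38, edgeR adjusted p = 0.0615).

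mt-Co1 (chrM:5328-6872), which holds the oxygen-reducing centre of complex IV, stood at 4171, 8878, 4702, 3673 and 4007 CPM in controls. Levels in Mettl3 KO were 1777, 3380, 2566, 3085 and 4588 CPM, and in Mettl14 KO at 3506, 4274, 4656, 3758 and 7362 CPM. Its ranges overlapped across all 3 groups, and its log2 fold change in Mettl3 KO was -0.92 (SE 0.30, edgeR adjusted p = 0.0733).

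The other measurable complex I genes had log2 fold changes of -1.63 for mt-Nd4 (SE 0.38, edgeR adjusted p = 0.0524), -1.35 for mt-Nd5, -1.20 for mt-Nd2 and -0.97 for mt-Nd6. The adjusted p of the last 3 ran from 0.0624 to 0.129. mt-Nd4 ranged over 555 to 1693 CPM in control, 169 to 615 in Mettl3 KO and 278 to 974 in Mettl14 KO. mt-Nd5 ranged over 583 to 2943, 337 to 1185 and 449 to 1951 CPM. mt-Nd2 ranged over 430 to 1859, 276 to 602 and 320 to 979 CPM, and mt-Nd6 over 70.0 to 454, 103 to 225 and 74.3 to 369. None of these 4 genes had groups that did not overlap. Replicate 5 was the highest Mettl3 KO library for each of the 7 measurable protein genes, and replicate 2 the highest for both ribosomal RNAs.

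**Figure D3:**
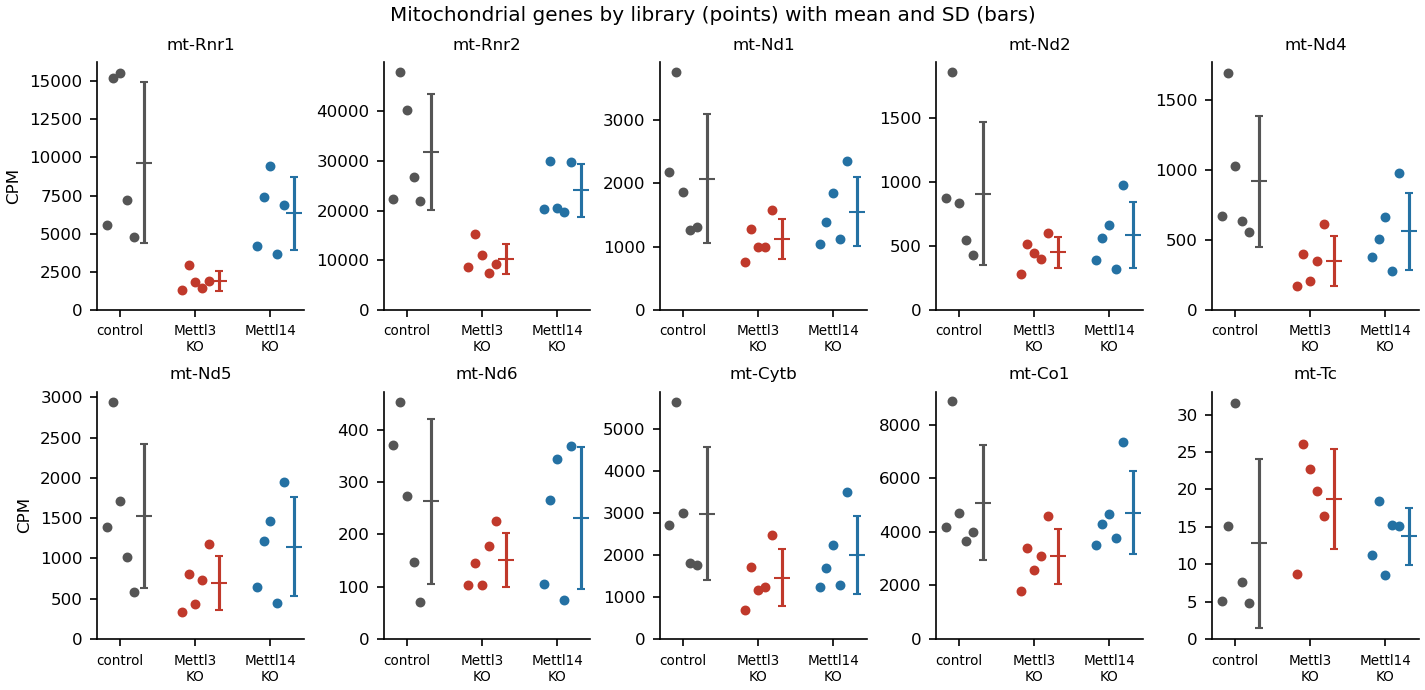
CPM of 10 mitochondrial genes in 15 libraries (points) with group mean and SD (bars, n = 5), each panel on its own linear axis from 0. The ribosomal RNAs of Mettl3 KO lie below every other library, mt-Rnr1 at no more than 2935 CPM, whereas the protein genes overlap between groups.

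The genes with under 2% countable positions varied from library to library on few reads. mt-Atp6, the complex V member of the set, stood at 1.81, 16.2, 6.77, 0.882 and 0.715 CPM in controls. The Mettl3 KO values were 0.576, 0.857, 0.480, 4.82 and 6.62 CPM, and in Mettl14 KO at 0.822, 5.58, 6.76, 1.181 and 9.41 CPM. Within each group the high libraries were many times the low ones. mt-Co2 and mt-Co3 were high in the same libraries, controls 2 and 3, Mettl3 KO 4 and 5 and Mettl14 KO 2, 3 and 5. In Mettl3 KO their log2 fold changes were -1.29 for mt-Atp6, -0.83 for mt-Co2 and -1.32 for mt-Co3, with SE from 0.77 to 0.97. The mt-Co2 value turned to 0.042 without control replicate 2.

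Among transfer RNAs, mt-Tc had a log2 fold change of 0.31 (SE 0.52) and mt-Tp of 0.07 (SE 0.56) in Mettl3 KO, with edgeR adjusted p of 0.634 and 0.920. mt-Tc ran from 4.77 to 31.6 CPM in control and from 8.64 to 26.0 in Mettl3 KO. These were the only tested mitochondrial genes above 0, and the mt-Tp value was -0.077 with no filter on low counts. A further 10 transfer RNAs and 3 protein genes had reads but too few to pass the filter.

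In Mettl14 KO tumors 0 of 14 genes were called by edgeR, as were 0% of the 21555 genes tested. At an unadjusted p under 0.05 there were 1 of 14 (mt-Nd4) and 2443 of all genes, and DESeq2 called 0 of the 14 and 505 of all (2.34%). In 0 of the 14 did Mettl14 KO lie wholly below control, as it did in 0.214% of all genes with a count, tested or not. The median log2 fold change of the 14 was -0.62, with 14 below 0, against -0.08 for all genes. mt-Rnr1 was at -0.83 (SE 0.42, edgeR adjusted p = 0.489), mt-Rnr2 at -0.61 (SE 0.29, adjusted p = 0.460) and mt-Nd4 at -0.92 (SE 0.40, adjusted p = 0.422). Library totals moved the median of all genes from -0.085 to 0.077, and with them mt-Tc and mt-Co2 turned to 0.090 and 0.074. Both knockouts were compared with the same 5 control libraries.

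**Figure D4:**
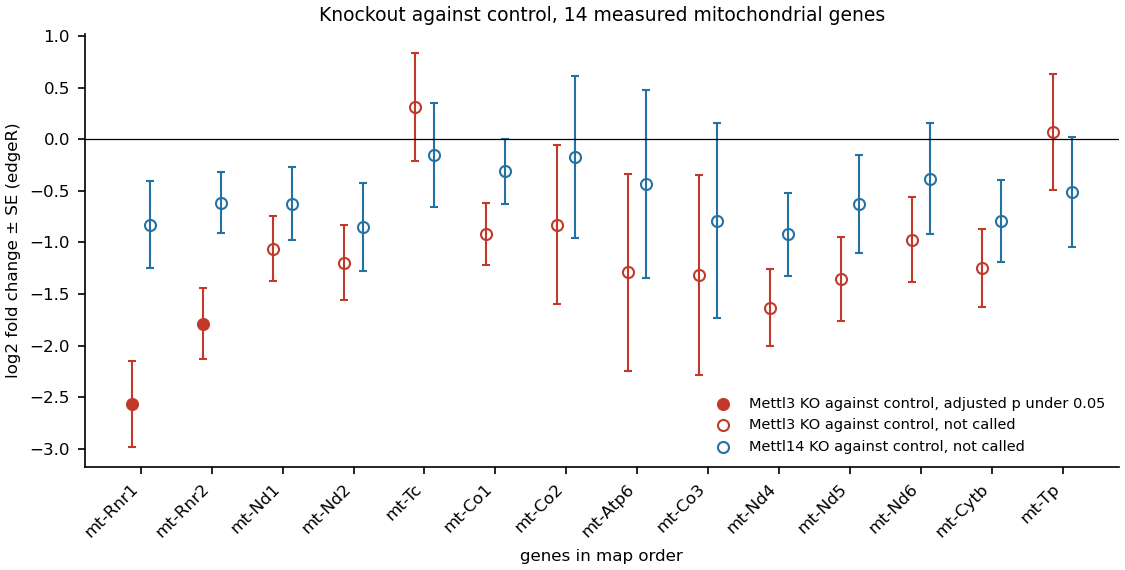
Log2 fold change ± SE (edgeR) of the 14 tested mitochondrial genes against control, in map order, for Mettl3 KO (red) and Mettl14 KO (blue). Only the Mettl3 KO values of mt-Rnr1 (-2.56) and mt-Rnr2 (-1.79) are filled, which marks an adjusted p under 0.05.

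The knockouts were also set against each other in 1 fit of all 15 libraries. The 2 ribosomal RNAs of Mettl3 KO lay wholly below those of Mettl14 KO, where 1.01% of all genes with a count, tested or not, did so. Their log2 differences of -1.70 for mt-Rnr1 (SE 0.41, edgeR adjusted p = 0.326) and -1.14 for mt-Rnr2 (SE 0.32, adjusted p = 0.349) did not pass. edgeR called 0 of 14 mitochondrial genes and 0% of 24566 genes, against 2 of 14 and 3150 at an unadjusted p under 0.05. DESeq2 called both ribosomal RNAs lower (adjusted p = 0.00418 and 0.0313), where it called 0.0814% of all genes lower. A difference between the knockouts in these RNAs was therefore called by 1 of the 2 tools.

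Ratios between 2 mitochondrial genes of the same library do not depend on its total. A set of 4 such ratios were compared between groups by two-sided exact permutation tests over samples, with p-values adjusted over the 12 tests. The smallest p that 5 against 5 can give is 0.00794.

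The ratio of mt-Rnr1 to mt-Rnr2, small-subunit to large-subunit RNA, was 0.250, 0.318, 0.385, 0.268 and 0.218 in control replicates 1 to 5. It was 0.147, 0.193, 0.168, 0.190 and 0.208 in Mettl3 KO, and 0.206, 0.247, 0.462, 0.187 and 0.231 in Mettl14 KO. All Mettl3 KO values lay below all controls, while Mettl14 KO overlapped both groups. The log2 difference between Mettl3 KO and control was -0.65 (exact permutation p = 0.00794, adjusted p = 0.0476, lower in 5 of 5). Both RNAs come from 1 stretch of the plus strand, and they were not lowered in equal measure in these libraries.

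The ratio of mt-Rnr2 to mt-Co1 was 5.34, 5.39, 8.57, 7.31 and 5.45 in controls. It was 4.88, 4.50, 4.27, 2.43 and 2.00 in Mettl3 KO, and 5.82, 7.04, 4.40, 5.23 and 4.04 in Mettl14 KO. Mettl3 KO again lay wholly below control, by -0.89 on the log2 scale (exact permutation p = 0.00794, adjusted p = 0.0476, lower in 5 of 5). The lowest ratios belonged to Mettl3 KO replicates 4 and 5, in which summed skeletal muscle markers were 1799 and 4789 CPM against 153 to 438 in replicates 1 to 3. Controls had 226 CPM (replicate 2, ratio 5.39) to 1188 CPM (replicate 3, ratio 8.57) of the 10 muscle markers, and Mettl14 KO 45.8 to 253 CPM. Most of the sum was Ttn, and no marker was at 0 in any group. The part of the muscle markers in the ratio was not tested. That replicates 1 to 3 were also below every control follows from the 5 of 5 above and is no test of muscle content.

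With 1 library left out, 4 against 5 samples have 126 regroupings, and the smallest possible p is again 0.00794. Both ratios were wholly lower in Mettl3 KO over all 10 libraries of the comparison, so leaving 1 out could not make the groups overlap. The unadjusted exact permutation p then ran from 0.00794 to 0.0238. The p adjusted over 12 tests was 0.0381 for each without control replicate 1, where 5 of the 12 tests reached 0.0159 or less, and 0.0952 to 0.143 without any 1 of the other 9. The difference ran from -0.74 to -0.54 for the first ratio and from -1.02 to -0.70 for the second.

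The remaining ratios did not pass. mt-Nd1 to mt-Nd4, 2 complex I genes far apart on the map, was 3.59 ± 0.992 in Mettl3 KO and 2.33 ± 0.560 in control (log2 difference 0.61, exact permutation p = 0.0397, adjusted p = 0.152). mt-Nd6 to mt-Nd5, which lie on opposite strands with overlapping ends, was 0.232 ± 0.0516 and 0.169 ± 0.0574 (0.49, exact permutation p = 0.0635, adjusted p = 0.152). Without control replicate 1 these were 0.74 and 0.67, each with an adjusted p of 0.0381. In Mettl14 KO the 4 log2 differences from control ran from -0.27 to 0.35, with adjusted p from 0.177 to 0.563 by the same test. Without control replicate 1, mt-Nd1 to mt-Nd4 was 0.48 (exact permutation adjusted p = 0.0381) and mt-Nd6 to mt-Nd5 0.42 (adjusted p = 0.0476) in Mettl14 KO.

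**Figure D5:**
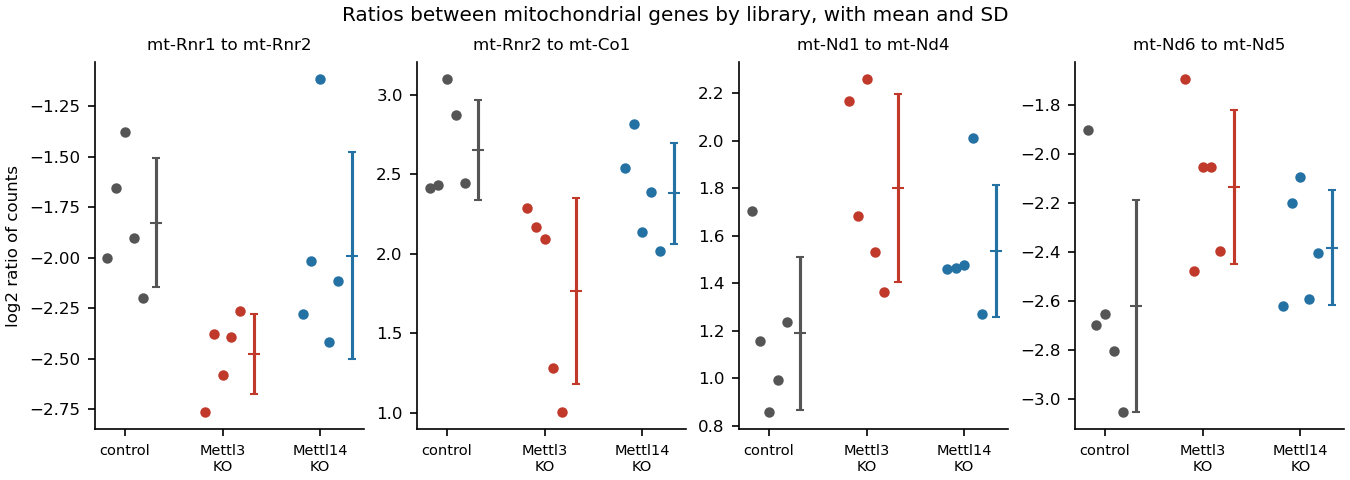
Log2 ratio of counts of 4 gene pairs in each library (points) with group mean and SD (n = 5), each panel on its own axis. Mettl3 KO lies wholly below control for mt-Rnr1 to mt-Rnr2 (-2.47 against -1.83 on average) and for mt-Rnr2 to mt-Co1 (1.77 against 2.65).

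The authors' deposited table of fold changes held another view of the same genes. In the authors' deposited table for Mettl3 KO, 13 of 37 mitochondrial genes had an adjusted p under 0.05, all lower, where 8.18% of 16160 rows with an adjusted p were lower. The 13 of the authors' deposited table were both ribosomal RNAs, 9 protein genes and the transfer RNAs mt-Ts1 and mt-Te. Of all 22 transfer RNAs, the authors' deposited table gave 18 a positive and 4 a negative log2 fold change. A further 10 had a higher adjusted p and 14 had none in the authors' deposited table. The authors' deposited table gave mt-Rnr1 a log2 fold change of -2.43 (adjusted p = 4.08e-08) and mt-Rnr2 of -1.67 (adjusted p = 1.03e-05).

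Genes that the count tables could not resolve were abundant there. The authors' deposited table gave mt-Co3 a mean normalized count of 19902, where the count tables, scaled in the same way, gave 74.4. For mt-Co2 the authors' deposited table gave 13381 against 76.2, for mt-Atp6 4201 against 38.9, for mt-Nd3 1312 against 6.28 and for mt-Nd4l 499 against 3.25. It gave mt-Atp8, which has no position shared with an annotated nuclear model, a mean of 2315. For mt-Co1, with 54.7% of positions countable, the authors' deposited table was 1.82 times the count tables. The ratio of the authors' deposited table to the count tables was 0.911 to 1.16 for mt-Rnr1, mt-Rnr2, mt-Nd1, mt-Nd2, mt-Nd5, mt-Nd6 and mt-Cytb, the 7 genes with few or no shared positions among those measurable.

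The nuclear copies were raised there too, Gm28437 from 888 in the count tables to a mean of 20623 in the authors' deposited table. Over all 18755 genes with a mean of at least 10 in both, 86.3% agreed within 1.5 times between the authors' deposited table and the count tables. The authors' deposited table, with 47729 rows against 54752, was thus not computed from these counts, and how its reads were counted is not stated in the labels or headers. In the authors' deposited table for Mettl3 KO, mt-Co3 was at -0.93 (adjusted p = 0.0317), mt-Co2 at -0.89 (0.0321), mt-Atp8 at -1.22 (0.0361) and mt-Atp6 at -0.73 (0.135). For Mettl14 KO the authors' deposited table listed 0 of 37 genes under 0.05, where 2.98% of its rows with an adjusted p were.

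In the count tables the nuclear copies themselves were sparse but present. Gm13340 on chromosome 2, a copy of mt-Co1, averaged 98.8 CPM over 15 libraries and Gm28437 90.9 CPM. Gm29216 averaged 83.9, Gm10925 68.1, Gm28661 51.7 and Gm28439 14.6 CPM. Gm28438, Gm13341, Gm10222, Gm13339 and Gm4076 lay between 1.11 and 9.77 CPM. Gm28437 averaged 56.7 ± 21.8 CPM in Mettl3 KO, 127 ± 43.8 in control and 89.2 ± 24.7 in Mettl14 KO, the same order of means as mt-Co1. A 75-base read identical in both could come from either, as at 709 read positions of Gm28437. Gm13340, with 37 mismatches over 1545 bases, shares only 220 read positions with mt-Co1.

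Nuclear genes that serve the mitochondrial genome were counted from lists chosen with earlier results of these data known. In Mettl3 KO, edgeR called 5 of the 227 tested, all lower, where it called 0.835% of all genes lower. These 5 calls were fragile: 0 of the lists' genes were called with RLE scaling, with library totals, with the satellite-like models out, with either other filter, with all 15 libraries in 1 fit or without any 1 library other than control replicate 1. Without that library 91 were called lower and 4 higher. Of all 22535 genes then tested, 3461 were called lower and 8162 higher. DESeq2 called 37 of the lists' genes lower and 1 higher, where it called 1947 of all 21427 genes lower and 557 higher. Ssbp1, which coats single-stranded mitochondrial DNA, fell from 58.1 ± 8.65 to 39.1 ± 8.93 CPM (log2 fold change -0.74, adjusted p = 0.0484) and was 1 of 12 replication genes. Mterf3, a regulator of mitochondrial transcription, fell from 34.5 ± 3.75 to 24.1 ± 4.12 CPM (-0.67, adjusted p = 0.0485) and was 1 of 10. Trmt10c, a subunit of the enzyme that cuts the 5′ ends of transfer RNAs, fell from 42.1 ± 4.88 to 26.6 ± 4.25 CPM (-0.81, adjusted p = 0.0394) and was 1 of 21 processing genes. Of 76 mitochondrial ribosomal protein genes, Mrpl50 (-0.83, adjusted p = 0.0478) and Mrps31 (-0.70, adjusted p = 0.0493) fell.

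None was called among 17 genes of ribosomal RNA modification and ribosome assembly, where Mrm3, a ribosomal RNA methyltransferase, had -0.89 (edgeR adjusted p = 0.0524). None was called among 10 biogenesis regulators, with Pprc1 at -0.84. The same held for the nuclear subunits, 37 of complex I, 9 of III, 14 of IV, 17 of V and 4 of complex II, which has no mitochondrially encoded part. Ndufb11 (complex I) was at -0.90, Uqcrh (III) at -0.91, Cox6b1 (IV) at -0.54 and Sdha (II) at -0.55. List medians ran from -0.65 for complex III to -0.26 for biogenesis regulators, against -0.14 for all genes and -1.22 for the mitochondrial genes. In Mettl14 KO none of the 11 lists had a called gene, where edgeR called 0% of all 21555 genes tested. List medians there ran from -0.44 to -0.04, against -0.08 for all genes.

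Markers of other cell types were summed by library, without a test. The 6 erythroid markers summed to 30.6 to 68.5 CPM in Mettl3 KO, 77.7 to 286 in control and 33.4 to 63.5 in Mettl14 KO. In the same order, the 7 T cell markers summed to 53.6 to 133, 10.9 to 46.2 and 30.8 to 236 CPM. The 7 macrophage markers summed to 588 to 1095, 719 to 1081 and 937 to 2211 CPM, and the epithelial markers to 49.0 to 130, 179 to 228 and 83.7 to 180 CPM. The 6 adipocyte markers summed to 41.6 to 70.7, 43.8 to 63.8 and 31.5 to 54.1 CPM. By sum, Mettl3 KO lay wholly below control in erythroid and epithelial markers and wholly above it in T cell markers. Its sums overlapped control in macrophage, muscle and adipocyte markers. The adipocyte sum was mostly Fabp4, which had a lower mean in Mettl3 KO than in control. Adipoq, Plin1, Cidec, Lep and Ucp1 had higher means in Mettl3 KO. Among macrophage markers Mrc1 and Cd14 had lower means in Mettl3 KO, while Adgre1, Cd68, Csf1r, C1qa and C1qb had higher means. The ranges of each of these adipocyte and macrophage markers overlapped between Mettl3 KO and control. The epithelial sum was mostly Krt20, at 60.3 ± 33.8 CPM in Mettl3 KO and 176 ± 10.0 in control. Krt18 also had a lower mean in Mettl3 KO, while Krt8, Krt19, Epcam and Cdh1 had higher means. Among erythroid markers Slc4a1 went the other way, at 6.73 ± 3.23 CPM in Mettl3 KO and 3.56 ± 2.31 in control. No gene of these lists was at 0 throughout a group, and their part in the mitochondrial differences was not tested.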

How the data were processed

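RNA-seq libraries (15 of 27 samples) were analysed, and the 12 immunoprecipitation samples and inputs were not. Groups follow sample titles. Samples titled Mettl14 carry a genotype field that reads Mettl4. Tables and design name Mettl14, as the titles do. No label ties a sample to an animal, and the spread behind each p-value may be technical. The submitters' processing notes name cutadapt 1.18, HISAT2 2.1.0, HTSeq 0.11.2, DESeq2 and the mm10 build. Strand and overlap settings of the counting are not stated there. The authors deposited raw counts per gene and, per the file headers, a table with mean normalized signal (baseMean), log2 fold changes, a test score (stat) and p-values. Lines naming no gene stayed out of totals and tests.

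Counts were tested with edgeR 4.0.16 in R 4.3.3 (filterByExpr minimum count 10, TMM, robust), with DESeq2 1.42.0 as an alternative. In simulated counts, edgeR recovered 100% of 4-fold and 36% of 2-fold changes in the Mettl3 KO comparison on 23355 genes, and 10.5% of its calls were false. Those counts had the same relative spread set for every gene, and libraries differed only in depth and in the changes set. The rates may not hold for these libraries. Ratios used counts plus 1. Countable positions came from GENCODE M21 transcripts (mm10), without strand. No 2 replicates were as alike as sampling noise alone would give, the smallest chi-square per gene of 30 pairs being 11.5. All values for each library were given for the ribosomal RNAs and the most abundant protein gene of each complex. From each nuclear list called genes were named, or those of smallest p. Members and lists were chosen with earlier results of these data known.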

Additional observations from a re-analysis of the deposited data

Results flagged for a closer look

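Among groups of 5 libraries, 3 values lay far from the rest of their group, where chance flags about 1 in 20 groups and 66 were looked at. Mitochondrial protein genes took 2.53% of gene counts in control replicate 2, and the next control had 1.34%. mt-Co1 stood at 8878 CPM in the same library, and the next control at 4702 CPM. The log2 ratio of mt-Nd1 to mt-Nd4 was 2.01 in Mettl14 KO replicate 4, and the next highest Mettl14 KO library had 1.48.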

How the results depend on the processing

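Genes called in Mettl3 KO numbered 100 with RLE scaling, 121 with library totals, 95 without satellite-like models, 62 with no filter, 78 at a mean of at least 1 CPM, 2504 with DESeq2, 43 with all 15 libraries in 1 fit, and 4 without the 4 satellite-rich libraries, an alternative added after seeing the data. Mitochondrial calls numbered 1 in the first 5 of these, 8 with DESeq2 and 0 in the last. Leaving out 1 library gave 15 to 11623 genes and 0 to 8 mitochondrial genes, both highest without control replicate 1 (11623 of 22535 genes tested). In Mettl14 KO, 47 genes were called with no filter, 505 with DESeq2 and 50 with all 15 libraries, and 0 to 1053 with 1 library out (1053 without control replicate 1). Between knockouts DESeq2 called 65 genes and 2 mitochondrial ones, and 0 to 1 genes were called with 1 library out.

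The labels do not say whether replicate numbers pair samples. Deviations of same-numbered samples correlated from -0.76 to 0.62, and in no case was the own number highest. With 5 numbers per group, this check cannot decide whether samples were paired. With the replicate number as a block, 6002 of all 21427 genes tested were called in Mettl3 KO, 4111 of them lower. Among these were 8 of 14 mitochondrial genes and 95 of 227 genes of the nuclear lists, all lower. In Mettl14 KO the block gave 14 genes and 0 mitochondrial genes, and mt-Tc turned to 0.32. As pairs, the ratio differences of -0.65 and -0.89 had an exact permutation adjusted p of 0.15 each, since 5 pairs allow no p below 0.0625.

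The mitochondrial share of uniquely aligned reads averaged 0.615% in Mettl3 KO, 2.43% in control and 1.58% in Mettl14 KO. In Mettl3 KO it was 2.63% of gene counts without satellite-like models. With 1 library out, the mt-Rnr1 to mt-Rnr2 difference ran from -0.74 to -0.54 and mt-Rnr2 to mt-Co1 from -1.02 to -0.70. The mt-Nd1 to mt-Nd4 difference ran from 0.50 to 0.74 in Mettl3 KO and from 0.23 to 0.48 in Mettl14 KO, and mt-Nd6 to mt-Nd5 from 0.38 to 0.67 and from 0.13 to 0.42.

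Signs turned for 2 well counted genes, mt-Co1 and mt-Nd2, and for 5 with few reads. In Mettl3 KO, mt-Tp was -0.077 with no filter and -0.19 to 0.65 with 1 library out, below 0 without control replicate 3, 4 or 5 or Mettl3 KO replicate 1 or 4. mt-Co2 there ran from -1.31 to 0.042, above 0 without control replicate 2. In Mettl14 KO, library totals gave mt-Tc 0.090 and mt-Co2 0.074. With 1 library out, mt-Co1 ran from -0.53 to 0.023, mt-Co2 from -0.67 to 0.62, mt-Atp6 from -0.86 to 0.64 and mt-Co3 from -1.39 to 0.20, each highest without control replicate 2. mt-Co2 was also above 0 without Mettl14 KO replicate 1 or 4, and mt-Tc ran from -0.39 to 0.55, above 0 without control replicate 3. Between knockouts, mt-Nd2 ran from -0.47 to 0.042 and mt-Co3 from -1.45 to 0.16, above 0 without Mettl14 KO replicate 5. The cause was not tested for any of these changes. Few reads limit the 22 transfer RNAs, which had 0 to 2242 over 15 libraries, and the protein genes with under 2% countable positions, which had 51 to 1265.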
